A study of Homo sapiens with 24 samples.

Results

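Glycolysis and hypoxia-inducible genes are described here as a set of 39 genes, taken by the rows whose numeric gene identifier maps to a listed symbol, out of 25343 genes in the files. All 39 had a row. They comprise 16 glycolytic enzymes, 2 regulators of glycolysis (PFKFB3, PFKFB4), 3 transporters (SLC2A1, SLC2A3, SLC16A3), 2 pyruvate dehydrogenase kinases (PDK1, PDK3), 15 targets of the hypoxia-inducible factor (HIF) that are not glycolytic, and HIF1A itself.

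RNA was measured by poly(A) RNA sequencing in HCT116, an established line from colon cancer, and in A375, an established melanoma line. Each line was used as the wild-type parent and as 1 knockout clone of PTDSS2, PTDSS2-KO#3 in HCT116 and PTDSS2-KO#54 in A375, so a difference between genotypes is a difference between a parent line and 1 clone. Cells in 12-well plates received vehicle (DMSO) or DS07551382, an inhibitor of the other phosphatidylserine synthase PTDSS1, at 0.1 µM for 24 h. The 8 groups held 3 libraries each, 24 in all, and the labels do not tell if these came from separate cultures. The p-values therefore speak only of the spread among libraries of a group, which may be technical.

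Glycolysis converts glucose to pyruvate in the cytosol, and cancer lines commonly turn much of that pyruvate into lactate even with oxygen present. HIF is a transcription factor of a labile alpha subunit, such as HIF1A, and a stable partner. With oxygen, prolyl hydroxylases of the EGLN family mark the alpha subunit for destruction through VHL. Without it, the alpha subunit accumulates and the pair binds a short core sequence at genes for glycolytic enzymes, glucose uptake, lactate export, pyruvate dehydrogenase kinases, blood vessel growth and mitochondrial removal. The control is mainly of HIF1A protein, which these data do not measure, and many of the genes also have other activators.

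The HIF core is shown first in 5 promoters that hold it. BHLHE40 and ALDOC were the non-glycolytic target and the enzyme with the largest rise in each knockout. P4HA1 rose in both knockouts, and LDHA and HK2 were called in opposite directions in the 2 lines. The letters ACGTG and GCGTG were searched on both strands in the 250 bases before the start of each gene in RefSeq (GRCh38.p14, a later build than the hg19 of the files). Each line gives a stretch of 120 bases on the strand of the gene, 5′ to 3′, with every match in capitals. CACGT and CACGC are the cores read on the other strand, and CACGTG holds a core on both strands.
BHLHE40, chr3:4979192-4979311, + strand: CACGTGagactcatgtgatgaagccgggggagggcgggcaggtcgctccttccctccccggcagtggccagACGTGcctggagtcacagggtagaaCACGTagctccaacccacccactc
ALDOC, chr17:28577016-28577135, − strand: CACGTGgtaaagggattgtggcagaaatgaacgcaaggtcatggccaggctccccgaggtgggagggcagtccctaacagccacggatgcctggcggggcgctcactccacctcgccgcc
P4HA1, chr10:73096867-73096986, − strand: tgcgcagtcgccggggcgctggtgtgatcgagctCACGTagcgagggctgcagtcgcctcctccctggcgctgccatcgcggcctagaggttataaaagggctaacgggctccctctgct
LDHA, chr11:18394378-18394497, + strand: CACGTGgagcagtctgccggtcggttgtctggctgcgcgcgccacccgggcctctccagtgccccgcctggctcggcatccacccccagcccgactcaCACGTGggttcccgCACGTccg
HK2, chr2:74834007-74834126, + strand: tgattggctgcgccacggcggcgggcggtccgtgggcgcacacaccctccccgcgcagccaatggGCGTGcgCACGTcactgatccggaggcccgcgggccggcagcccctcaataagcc

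Promoters were matched for 34 of the 39 members, and not for VEGFA, NDRG1, BNIP3L, HILPDA or SLC2A3. ACGTG was present in 15 of the 34 and GCGTG in 12, against 18.7% and 31.9% of all 27305 promoters. At least 1 of the pair was present in 22 of the 34, against 43.1% of all promoters. Among the 16 enzymes, 8 held ACGTG and 5 held GCGTG, and among the 11 matched non-glycolytic targets, 6 held ACGTG and 3 held GCGTG. Neither was found in this window for SLC2A1, SLC16A3, PDK1, MXI1, P4HA2, EGLN3, HK1, PFKP, PFKM, PGAM1, TPI1 and PKM. All 5 promoters printed above hold a match, so they do not stand for the set. HK1 was also called in opposite directions, and MXI1, PKM and PDK1 also rose in both knockouts, all without a match. A match is a description of letters and not of binding.

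Library totals lay between 6211629 and 11688267 expected counts with a median of 9200460, and the knockout libraries with inhibitor were the shallowest group in HCT116 and the deepest in A375. PTDSS2 was low in both clones, at 6.60 counts-per-million (CPM) against 35.7 in the HCT116 parent and 0.880 against 23.1 in the A375 parent, all in vehicle. Colon epithelial markers summed to 4391 to 5285 transcripts-per-million (TPM) in HCT116 libraries and 297 to 404 in A375 libraries, and melanoma and neural crest markers to 26.5 to 40.2 and 479 to 644. Of 14 colon markers, 8 averaged above 1 TPM in HCT116 and 2 in A375, and of 14 melanoma markers 4 and 9. Not every marker followed the sums. PMEL had medians of 2.96 TPM in HCT116 and 0.26 in A375, TFAP2A ranges overlapped, and TYR was at 0 in both lines.

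On the per-length TPM scale the set spanned a wide range in untreated parents. GAPDH, which oxidises glyceraldehyde phosphate, led at 4908 ± 45.0 TPM (SD, n = 3) in HCT116 and 8390 ± 22.8 in A375. ENO1 (enolase) followed at 2233 ± 19.6 and 3071 ± 44.0, then PKM (pyruvate kinase) at 1470 ± 11.4 and 2257 ± 8.84. The 7 highest members were enzymes in both lines. BNIP3 was the highest of the non-glycolytic targets in A375 at 118 ± 6.85 TPM, and ADM and BNIP3 were close in HCT116 at 58.2 ± 7.58 and 55.4 ± 2.28. CA9, a cell-surface carbonic anhydrase that is a common marker of hypoxia, was lowest in both lines at 0.0467 ± 0.0808 and 0.333 ± 0.0153 TPM, and it did not pass the filter on low counts in either line. EGLN3 was also below the filter in A375, at 0.490 ± 0.342 TPM. This left 38 members tested in HCT116 and 37 in A375. Named pseudogenes and antisense genes of members held at most 30.7 counts in any library, but the sources used here do not give strand use in counting, so reads of a gene and its antisense partner cannot be told apart, and reads shared with near-identical copies, as for GAPDH or PGAM1, stay uncertain.

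In HCT116 knockout cells HIF1A RNA and several non-glycolytic HIF targets rose with inhibitor, led by BHLHE40, NDRG1 and VEGFA, while the glucose transporter SLC2A1, LDHA and both hexokinases fell. Of the 38 members tested, 13 rose and 9 fell (edgeR quasi-likelihood test, adjusted p under 0.05), where 17.0% of all genes tested rose and 19.6% fell. Enzymes went both ways, with 5 of 16 up, 6 down and a median log2 fold change of -0.0145. Of the 14 non-glycolytic targets tested, 6 rose and 0 fell, with a median of 0.21, against a median of 0.0022 over all genes. The 0 falls among targets held at unadjusted p under 0.05 (0 by edgeR) and with DESeq2 (0). No test of one class against the other was made. In bulk RNA a change in level per cell and a change in the mix of cells cannot be told apart.

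BHLHE40, a basic helix-loop-helix repressor, had the largest rise of the set in HCT116. Its libraries read 57.4, 53.5 and 58.2 CPM with inhibitor and 25.2, 23.7 and 19.1 with vehicle, a log2 fold change of 1.31 ± 0.081 (SE; edgeR adjusted p = 3.37e-18). Genes given library by library for a called change were taken among those whose groups did not overlap, apart from HIF1A, VEGFA, HK2, LDHA, SLC2A1, PDK1, BNIP3 and CA9, so their separation is part of the choice. NDRG1, a stress-inducible gene linked to growth arrest and differentiation, read 129, 135 and 118 CPM against 55.6, 56.3 and 58.1, a change of 1.17 ± 0.054 (edgeR adjusted p = 8.88e-23). VEGFA, the main growth factor for blood vessels, read 77.1, 71.0 and 74.4 CPM against 45.0, 45.2 and 45.9, a change of 0.71 ± 0.061 (edgeR adjusted p = 2.34e-13). All 3 were high in the treated libraries. The other rises among targets were BNIP3L, a receptor for mitochondrial removal (0.46 ± 0.068), P4HA1, a catalytic subunit of collagen prolyl hydroxylase (0.42 ± 0.070), and MXI1, a MAX partner that opposes MYC (0.30 ± 0.071).

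HIF1A RNA itself rose in HCT116 knockout cells. It read 274, 291 and 276 CPM with inhibitor against 192, 194 and 200.1 with vehicle, a change of 0.52 ± 0.039 (edgeR adjusted p = 2.98e-15), and the 6 parent libraries lay between 198 and 217 CPM. All 3 treated knockout libraries were therefore above every other HCT116 library. BNIP3, the other mitochondrial receptor of the pair with BNIP3L, read 38.1, 40.5 and 34.1 CPM against 33.8, 41.7 and 32.6, overlapping groups with a change of 0.066 ± 0.084 (edgeR adjusted p = 0.582). That value ran from -0.0025 without vehicle library 3 to 0.18 without vehicle library 2 and was not called in either case. CA9 read 0.505, 0.305 and 0 CPM against 0.437, 0.344 and 0.440, near the floor in both. The targets that were not called ranged from -0.20 (HILPDA) to 0.46 (ANKRD37), and they included ADM, EGLN1, EGLN3, KDM3A and P4HA2.

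Among HCT116 enzymes, ALDOC, the less abundant aldolase, had the largest rise. Its libraries read 25.7, 24.7 and 23.3 CPM against 13.3, 12.4 and 10.9, a change of 1.02 ± 0.11 (edgeR adjusted p = 1.43e-10). GAPDH (0.18 ± 0.028), ENO2 (0.21 ± 0.069), PFKL (0.19 ± 0.042) and PKM (0.14 ± 0.028) rose by less. LDHA, the lactate dehydrogenase subunit favoured for making lactate, read 906, 911 and 870.5 CPM against 1109, 1145 and 1099, a change of -0.32 ± 0.029 (edgeR adjusted p = 2.66e-12). HK1, a hexokinase of the first step, read 79.2, 85.0 and 73.3 CPM against 98.8, 97.3 and 91.3 (-0.27 ± 0.055, edgeR adjusted p = 8.31e-05). HK2, the inducible hexokinase, read 89.6, 88.9 and 87.4 CPM against 99.2, 108 and 99.5 (-0.20 ± 0.051, edgeR adjusted p = 0.00135). Libraries of the 2 groups did not overlap for LDHA, HK1 or HK2, which the choice of genes required of HK1. PFKM, PFKP and PGAM1 also fell, each by 0.15.

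Of the 2 glucose transporters and 2 regulators of glycolysis, SLC2A1 and PFKFB3 fell in HCT116 knockout cells, while PFKFB4 (0.16 ± 0.12) and SLC2A3, near the floor of counts, were not called. SLC2A1, the more abundant of the 2 glucose transporters in the set, had the largest fall, to 100.1, 94.3 and 87.2 CPM from 159, 169 and 158, a change of -0.78 ± 0.048 (edgeR adjusted p = 3.89e-18). PFKFB3 makes the fructose bisphosphate that activates phosphofructokinase, and it read 57.4, 54.2 and 56.9 CPM against 75.5, 71.4 and 72.0, a change of -0.38 ± 0.058 (edgeR adjusted p = 9.13e-07). SLC16A3, a lactate exporter, fell by 0.097 on the log2 scale with overlapping libraries. PDK1, which restrains the entry of pyruvate into mitochondria, read 13.9, 15.4 and 15.9 CPM against 11.6, 12.0 and 11.7, a change of 0.35 ± 0.12 (edgeR adjusted p = 0.0215). The PDK1 call was lost with DESeq2 (adjusted p = 0.0778) and without vehicle library 1 or 3 or inhibitor library 2 or 3 (edgeR adjusted p of 0.0515 to 0.0845).

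**Figure D1:**
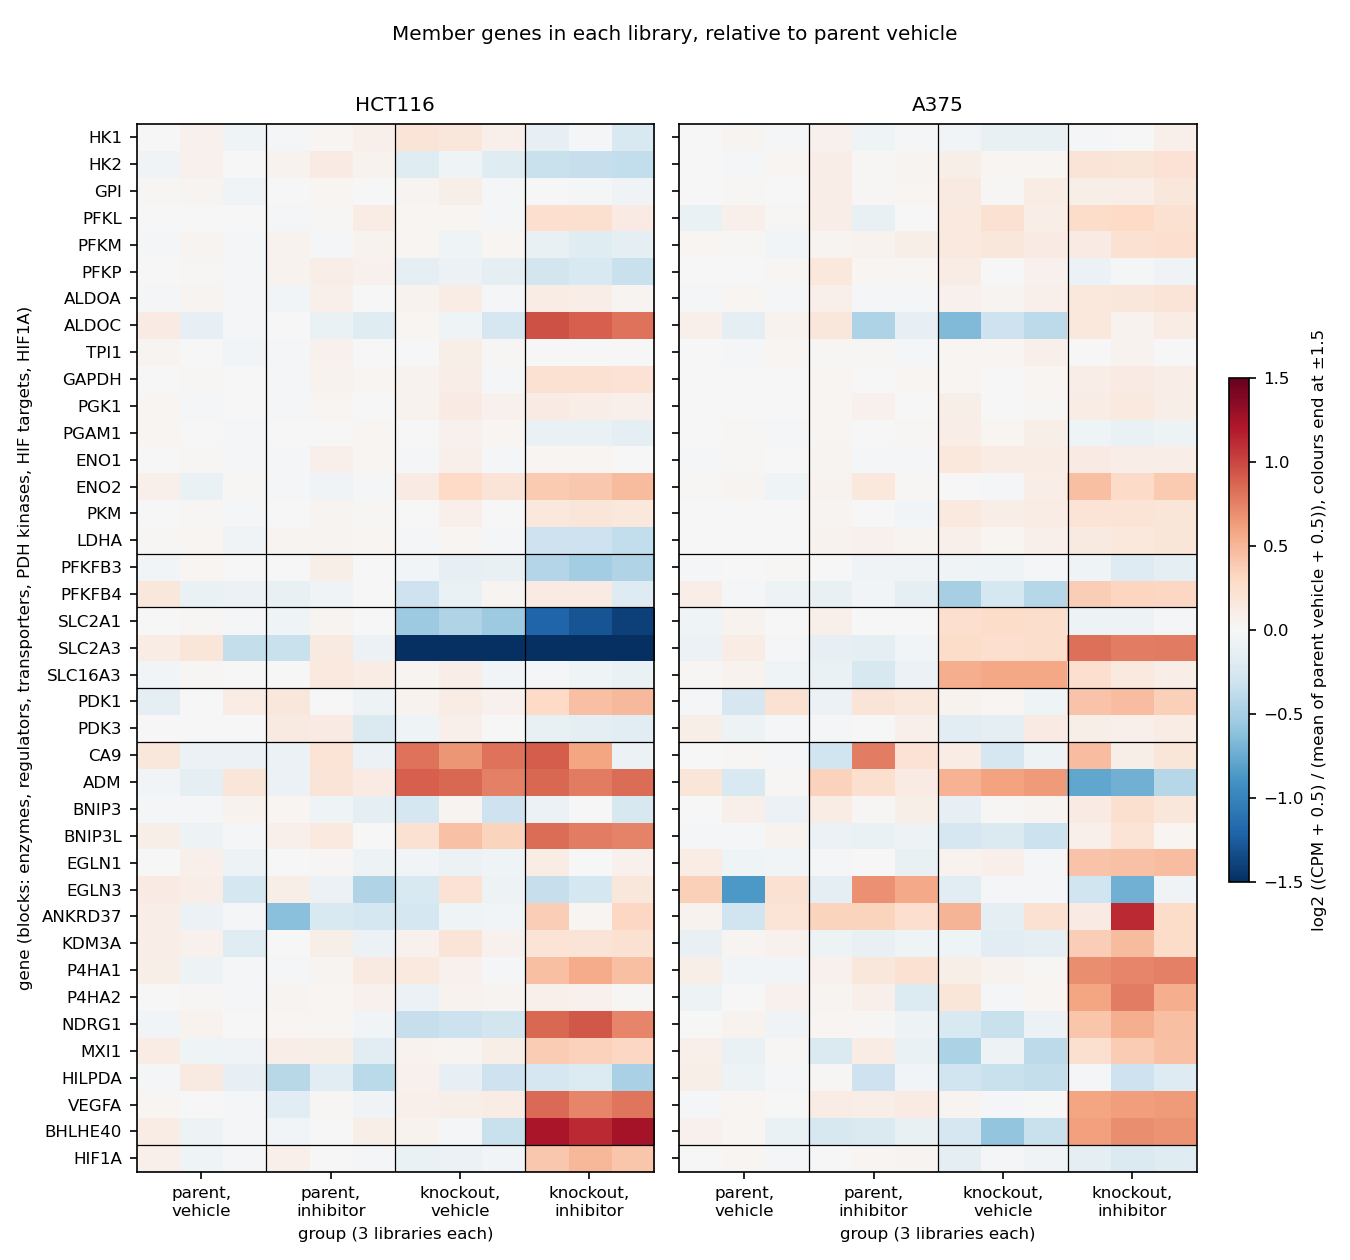
Each row is a member and each column a library, coloured by log2 of (CPM + 0.5) over the mean of the parent vehicle group of the same line, with lines between groups and between classes. The knockout inhibitor columns stand out for BHLHE40, NDRG1, VEGFA and P4HA1 in both lines, for SLC2A1, LDHA and HIF1A in HCT116, and for ADM in A375, while SLC2A3 is low in every HCT116 knockout library.

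In A375 knockout cells most non-glycolytic targets rose with inhibitor, led by BHLHE40, MXI1 and P4HA1, ADM fell, and 9 of the enzymes rose, most by small amounts. Of the 37 members tested, 22 rose and 6 fell, where 18.6% of all genes tested rose and 18.8% fell (edgeR quasi-likelihood test, adjusted p under 0.05). The shares over all genes, here and in HCT116, were not matched for expression level. Changes as small as 0.075 (PGK1) were called here among the abundant enzymes. Of the 13 non-glycolytic targets tested, 10 rose and 1 fell, with a median log2 fold change of 0.50, against 0.0056 over all genes. Of the 16 enzymes, 9 rose and 2 fell with a median of 0.086, led by ALDOC and ENO2.

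BHLHE40 again had the largest rise, with 27.8, 29.6 and 29.0 CPM against 15.1, 11.8 and 14.2, a change of 1.06 ± 0.090 (edgeR adjusted p = 6.66e-13). MXI1 read 28.5, 31.6 and 32.8 CPM against 17.2, 22.8 and 18.2, a change of 0.70 ± 0.092 (edgeR adjusted p = 5.42e-08). P4HA1 read 72.6, 74.0 and 75.4 CPM against 47.3, 45.9 and 45.1, a change of 0.68 ± 0.055 (edgeR adjusted p = 1.15e-13). All 3 were high in the treated libraries, a separation that the choice of genes required. NDRG1 read 95.3, 104 and 98.1 CPM against 61.2, 56.9 and 67.2, a change of 0.68 ± 0.053 (edgeR adjusted p = 4.39e-14). VEGFA read 96.7, 98.9 and 99.3 CPM against 65.7, 63.1 and 64.1, a change of 0.61 ± 0.045 (edgeR adjusted p = 1.28e-14). Both were again high in the treated libraries, with no overlap, which the choice of genes required of NDRG1. P4HA2, the other collagen prolyl hydroxylase subunit (0.57 ± 0.083), KDM3A, a histone demethylase (0.50 ± 0.062), EGLN1, the prolyl hydroxylase that marks HIF alpha subunits (0.40 ± 0.044), and BNIP3L (0.37 ± 0.067) rose as well.

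ADM, the secreted peptide adrenomedullin, went the other way in A375. It read 8.29, 8.65 and 10.7 CPM with inhibitor against 21.2, 22.4 and 22.9 with vehicle, a change of -1.25 ± 0.11 (edgeR adjusted p = 2.38e-12), the largest change of the set in this comparison. All 3 treated libraries were also below the 3 parent vehicle libraries, which read 16.6, 12.4 and 14.7 CPM. BNIP3 read 93.6, 101 and 96.8 CPM against 78.9, 86.7 and 88.2, a change of 0.20 ± 0.049 (edgeR adjusted p = 8.39e-04). HIF1A read 292, 274 and 282 CPM against 289, 314 and 307, a small fall of overlapping groups (-0.10 ± 0.032, edgeR adjusted p = 0.0124). That HIF1A call was lost without vehicle library 2 or 3 or inhibitor library 2 (edgeR adjusted p of 0.0621 to 0.134). CA9 stayed near the floor, at 0.531, 0.292 and 0.343 CPM against 0.307, 0.124 and 0.207.

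PFKFB4, the second regulator of phosphofructokinase, was raised in A375, with 59.2, 57.5 and 56.7 CPM against 32.3, 38.1 and 33.9, a change of 0.74 ± 0.064 (edgeR adjusted p = 9.86e-13). SLC2A1 fell, with 275, 276 and 285 CPM against 346, 350.5 and 348, a change of -0.32 ± 0.031 (edgeR adjusted p = 3.01e-11), while SLC2A3, a glucose transporter of high affinity, rose to 73.4, 70.8 and 71.2 CPM from 50.05, 49.2 and 49.7 (0.53 ± 0.054). The 2 glucose transporters thus moved in opposite directions, with no overlap of libraries in either. SLC2A3 was not chosen by the rule for library values in this comparison and was added to it. SLC16A3 read 21.0, 19.5 and 18.9 CPM against 25.9, 26.6 and 26.6, a change of -0.41 ± 0.081 (edgeR adjusted p = 6.05e-05). PDK1 read 23.4, 24.0 and 22.2 CPM against 17.9, 17.6 and 16.4, a change of 0.42 ± 0.097 (edgeR adjusted p = 5.26e-04). PDK3, a second kinase of this family, was not called (0.15 ± 0.086).

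Enzymes in A375 knockout cells shifted little. LDHA read 1059, 1080 and 1092 CPM against 1019, 982 and 1019, a change of 0.098 ± 0.024 (edgeR adjusted p = 9.95e-04). HK2 read 184, 184 and 188 CPM against 172, 166 and 165, a change of 0.15 ± 0.035 (edgeR adjusted p = 7.93e-04). Both genes rose here and fell in HCT116, without overlap of libraries in either line. Neither rise here was called beyond the inhibitor effect of the A375 parent. PGAM1, a phosphoglycerate mutase, read 624, 609.8 and 619 CPM against 699, 665 and 692, a change of -0.15 ± 0.026 (edgeR adjusted p = 6.58e-06). PFKP, a phosphofructokinase, read 184, 193 and 189.6 CPM against 213, 196 and 205, a change of -0.12 ± 0.037 (edgeR adjusted p = 0.0107), and this call was lost without vehicle library 1 (edgeR adjusted p = 0.106) or inhibitor library 1 (0.0536). ALDOC (0.59 ± 0.12), ENO2 (0.36 ± 0.063), ALDOA (0.12 ± 0.025), HK1 (0.11 ± 0.037), GAPDH (0.092 ± 0.020), PKM (0.080 ± 0.022) and PGK1 (0.075 ± 0.026) made up the other rises. With inhibitor ALDOC averaged 16.37 CPM in the clone, near the untreated parent at 15.14.

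**Figure D2:**
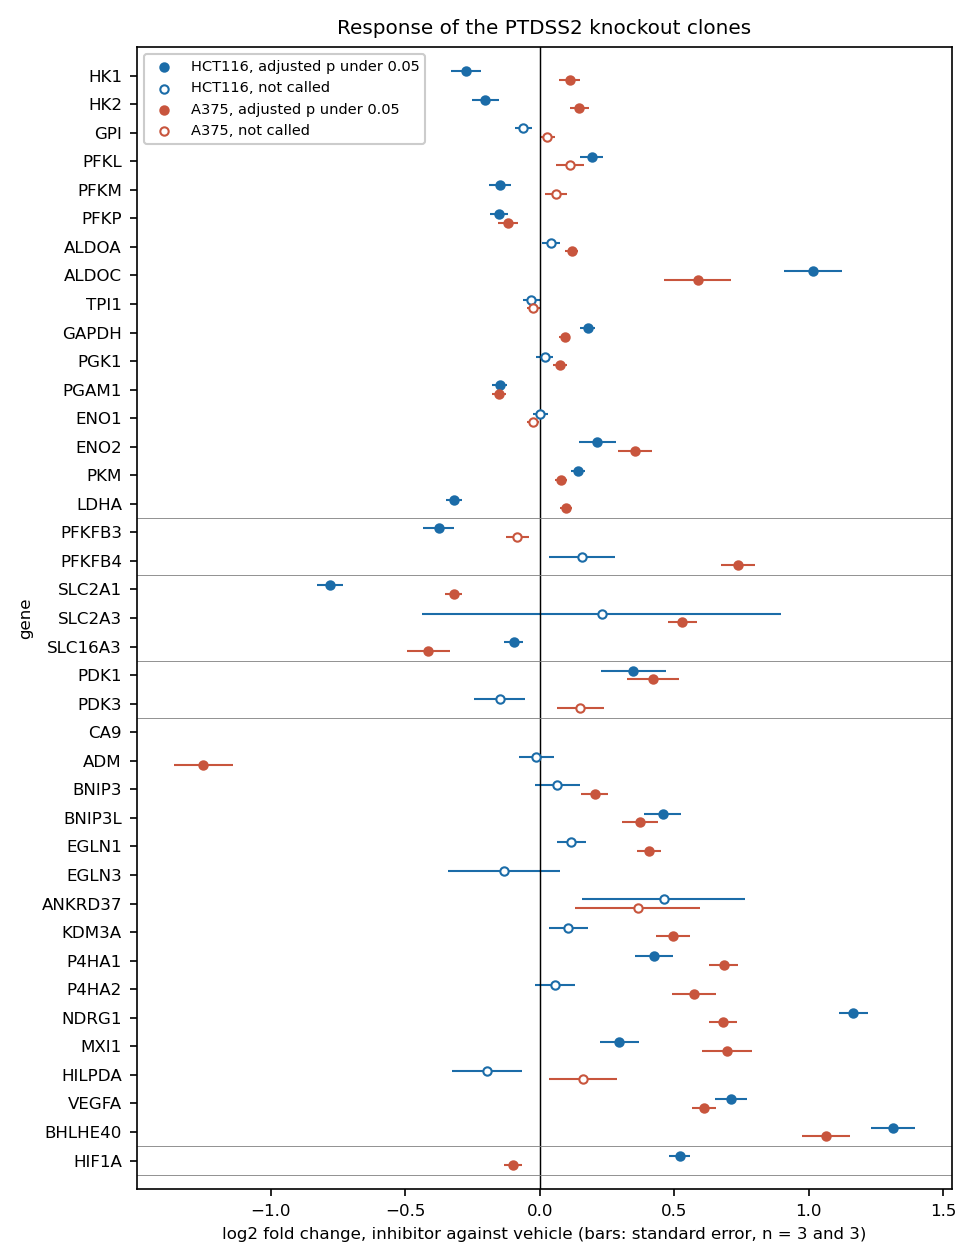
Points are log2 fold changes of inhibitor against vehicle in the knockout clones of HCT116 (blue) and A375 (red), with standard errors, filled where adjusted p was under 0.05, and grouped by class. Enzymes other than ALDOC lie between -0.32 (LDHA in HCT116) and 0.36 (ENO2 in A375), while BHLHE40, NDRG1, VEGFA and P4HA1 lie to the right in both lines and HIF1A, LDHA, HK1 and HK2 lie on opposite sides.

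Set side by side, 11 members rose in both knockouts, which is 11 of the 13 that rose in HCT116 and 11 of the 22 that rose in A375. Of the 12003 genes tested in both lines 6.48% rose in both, and of the genes that rose in HCT116 38.2% also rose in A375. They were ALDOC, GAPDH, ENO2, PKM, PDK1, BNIP3L, P4HA1, NDRG1, MXI1, VEGFA and BHLHE40. Falls in both lines were called for 4 of the 37 members tested in both, PFKP, PGAM1, SLC2A1 and SLC16A3. This is near the 9.72% of those genes that fell in both. Another 4 were called in opposite directions, against 2.98% of those genes. HK1, HK2 and LDHA fell in HCT116 and rose in A375, and HIF1A rose in HCT116 and fell in A375. The A375 rises of HK1, HK2 and LDHA were not called beyond the inhibitor effect of the A375 parent. The A375 fall of HIF1A lost its call without vehicle library 2 or 3 or inhibitor library 2.

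The difference of the knockout responses between lines was tested directly in a fit of all 24 libraries, as A375 minus HCT116. It was above 0 for 12 of 38 members and below 0 for 4, where 10.4% and 8.31% of all genes were called (edgeR adjusted p under 0.05). HIF1A differed by -0.61 ± 0.052 (edgeR adjusted p = 3.17e-15), LDHA by 0.42 ± 0.038 (edgeR adjusted p = 5.73e-14), and ADM by -1.23 ± 0.13 (edgeR adjusted p = 5.19e-11). SLC2A1 differed by 0.47 ± 0.058, with the deeper fall in HCT116. Among enzymes, the 4 called differences were HK1, HK2, PFKM and LDHA, all above 0. Among targets, P4HA2 (0.52 ± 0.11), MXI1 (0.41 ± 0.12), KDM3A (0.40 ± 0.096), EGLN1 (0.29 ± 0.070) and P4HA1 (0.26 ± 0.088) had the larger rise in A375 or rose only there by this threshold, and NDRG1 (-0.48 ± 0.077) had the larger rise in HCT116. VEGFA (-0.094 ± 0.074, edgeR adjusted p = 0.438) and BHLHE40 (-0.24 ± 0.13, edgeR adjusted p = 0.191) were not called different.

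Parent cells showed no called change in the set. With inhibitor, 0 of 38 members in the HCT116 parent and 0 of 37 in the A375 parent passed by edgeR and by DESeq2, and 3 and 4 members had unadjusted p under 0.05 by edgeR. Over all genes 0% rose and 0% fell in the HCT116 parent, and 0.0223% rose and 0.0669% fell in the A375 parent. Log2 fold changes ran from -0.48 to 0.088 in HCT116 and from -0.19 to 0.34 in A375. BHLHE40, for instance, read 23.6, 24.1 and 25.8 CPM with inhibitor and 26.1, 22.9 and 23.7 with vehicle in the HCT116 parent. NDRG1 read 73.3, 72.5 and 68.0 CPM with inhibitor and 71.2, 74.4 and 69.1 with vehicle in the A375 parent. These libraries overlapped between the groups. In the A375 parent BHLHE40 had the lowest change of the set, at -0.19, and was not called. Its means there were 15.78 CPM with inhibitor and 18.05 with vehicle. Groups did not overlap for 4 of 38 members in the HCT116 parent and 10 of 37 in the A375 parent. The share of all genes without overlap was not counted, so these counts cannot be read as a trait of the set.

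Subtracting the inhibitor effect of the parent from that of the knockout uses the same knockout libraries as the comparisons above. This difference was above 0 for 11 of 38 HCT116 members and below 0 for 9, where 10.9% and 13.5% of genes were called (edgeR adjusted p under 0.05). In A375 it was above 0 for 15 of 37 members and below 0 for 5, where 13.0% and 13.8% of genes were called. Among non-glycolytic targets it was above 0 for 6 of 14 in HCT116, with a median of 0.21, and for 9 of 13 in A375, with a median of 0.50. The difference was below 0 for 0 targets in HCT116 and 1 in A375. That target was ADM at -1.49, the largest difference of the set in A375. Among the 16 enzymes it was above 0 for 4 and below 0 for 6 in HCT116, and above 0 for 4 and below 0 for 2 in A375, with medians of -0.036 and 0.060. BHLHE40 differed by 1.30 ± 0.12 in HCT116 and 1.25 ± 0.14 in A375. SLC2A1 differed by -0.77 ± 0.061 and -0.34 ± 0.045. PDK1 was not called in HCT116 (0.31 ± 0.17, edgeR adjusted p = 0.201) or in A375 (0.32 ± 0.14, edgeR adjusted p = 0.0977), and ENO2 was not called in HCT116 (0.25 ± 0.099, edgeR adjusted p = 0.0585). Among members called in the A375 knockout, SLC16A3 (-0.27 ± 0.13, edgeR adjusted p = 0.116), BNIP3 (0.13 ± 0.071, edgeR adjusted p = 0.197), LDHA (0.046 ± 0.034), HK1 (0.12 ± 0.053), HK2 (0.097 ± 0.051), GAPDH (0.073 ± 0.029) and PGK1 (0.044 ± 0.037) were not called in this difference either.

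**Figure D3:**
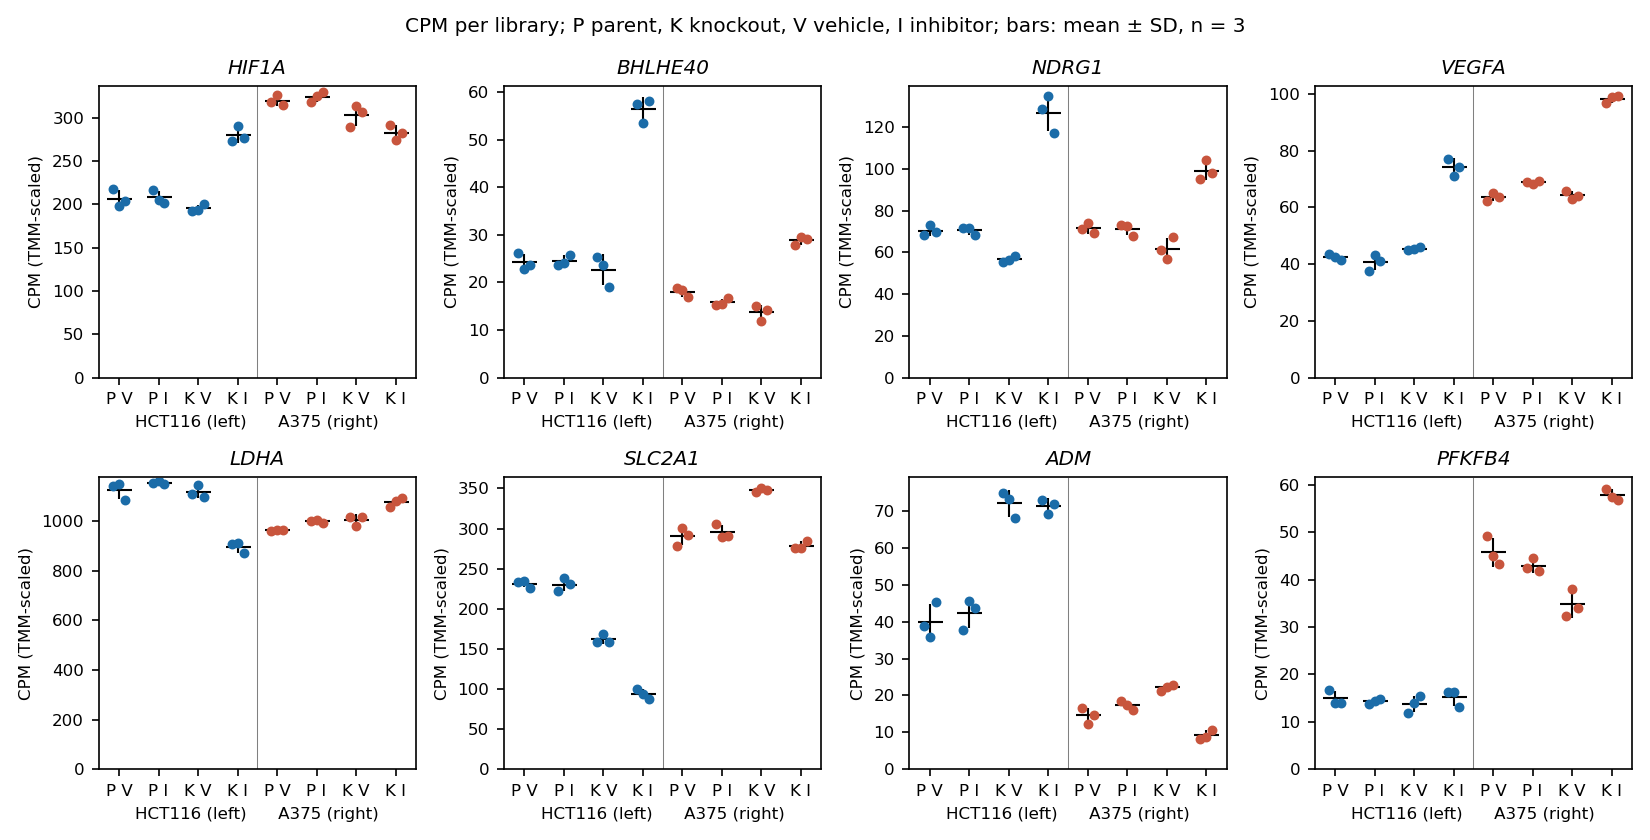
Each panel gives the TMM-scaled CPM of 1 member in all 24 libraries, with group means and SD (n = 3), HCT116 in blue and A375 in red. HIF1A is raised in treated HCT116 knockout libraries, SLC2A1 is lowest there, BHLHE40, NDRG1 and VEGFA are raised in treated knockouts of both lines, and ADM is at most 10.7 CPM in treated A375 knockout libraries.

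Some members already differed between clone and parent in vehicle. In HCT116, 4 of 38 members were higher in the clone and 5 were lower, where 10.5% and 10.8% of genes were called (edgeR adjusted p under 0.05). Members were thus called about as widely there as genes in general. ADM read 75.0, 73.4 and 68.1 CPM in the clone and 38.8, 36.0 and 45.3 in the parent, a difference of 0.85 ± 0.068 (edgeR adjusted p = 1.32e-13). SLC2A1 read 159, 169 and 158 CPM against 233, 234 and 226, a difference of -0.51 ± 0.039 (edgeR adjusted p = 9.28e-15). The clone was thus below its parent in SLC2A1 before treatment and fell further with inhibitor. BNIP3L read 37.5, 43.5 and 40.3 CPM against 33.9, 30.3 and 31.6 (0.34 ± 0.072), and NDRG1 read 55.6, 56.3 and 58.1 CPM against 68.3, 73.2 and 70.0 (-0.31 ± 0.057). NDRG1 therefore rose with inhibitor from a level below that of the parent, and to a level above it. PFKP read 328, 342 and 332 CPM against 365, 368 and 359 (-0.12 ± 0.032). ENO2 (39.5, 44.7 and 41.4 against 38.1, 33.8 and 36.6 CPM, 0.21 ± 0.068), HK1 (98.8, 97.3 and 91.3 against 85.9, 90.5 and 82.2 CPM, 0.15 ± 0.051) and HK2 (99.2, 108 and 99.5 against 108, 118 and 112 CPM, -0.14 ± 0.045) were called by edgeR and not by DESeq2 (adjusted p = 0.100, 0.101 and 0.0711). Each was also lost without 1 library: ENO2 without parent or clone library 2 (edgeR adjusted p of up to 0.133), HK1 without parent library 1 or 3 or clone library 1 or 2 (up to 0.134), and HK2 without parent library 2 or clone library 1 or 3 (up to 0.132). Either DESeq2 or leaving out clone vehicle library 2 brought the 4 higher members down to 2.

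SLC2A3 was too low for the rule on named genes and was picked out after its values were seen. It read 0.328, 0.573 and 0.330 CPM in the HCT116 clone and 5.93, 6.22 and 4.15 in the parent, a difference of -3.69 ± 0.34 (edgeR adjusted p = 3.68e-12). The 6 libraries of the HCT116 clone, with or without inhibitor, held at most 0.573 CPM.

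In A375, 8 of 37 members were higher in the clone and 6 were lower, where 9.18% and 6.54% of genes were called (edgeR adjusted p under 0.05). All 3 transporters were higher in the clone. SLC16A3 read 25.9, 26.6 and 26.6 CPM against 17.8, 18.3 and 16.8 (0.58 ± 0.089, edgeR adjusted p = 3.57e-06). SLC2A3 read 50.05, 49.2 and 49.7 CPM against 38.9, 44.6 and 40.5 (0.27 ± 0.063), and SLC2A1 read 346, 350.5 and 348 CPM against 278, 300.2 and 292 (0.26 ± 0.032). The treated A375 clone, at 275, 276 and 285 CPM of SLC2A1, was thus back near the range of its parent. ADM read 21.2, 22.4 and 22.9 CPM against 16.6, 12.4 and 14.7 (0.60 ± 0.11, edgeR adjusted p = 4.73e-05), so its RNA was higher in the clones of both lines. PFKFB4 read 32.3, 38.1 and 33.9 CPM against 49.1, 45.0 and 43.2 (-0.40 ± 0.070), and BNIP3L read 31.9, 32.7 and 30.5 CPM against 37.5, 37.4 and 39.5 (-0.27 ± 0.071). These genes were lower in the clone and rose with inhibitor, but both comparisons share the clone vehicle libraries. The treated clone averaged 57.78 CPM of PFKFB4, and 41.05 of BNIP3L, near the untreated parent mean of 38.15. ALDOC (9.42, 12.1 and 11.4 against 16.01, 13.7 and 15.8 CPM, -0.48 ± 0.13), BHLHE40 (15.1, 11.8 and 14.2 against 18.9, 18.4 and 16.8 CPM, -0.39 ± 0.11), NDRG1 (61.2, 56.9 and 67.2 against 71.2, 74.4 and 69.1 CPM, -0.21 ± 0.059) and PFKM (109.5, 110.4 and 107 against 100.3, 99.8 and 95.4 CPM, 0.15 ± 0.045) were called as well. Each of those 4 calls was lost without 1 library. For BHLHE40 it was clone library 2 (edgeR adjusted p = 0.0655), for ALDOC parent library 1 or 3 or clone library 1 (up to 0.0941), for NDRG1 parent or clone library 2 (up to 0.0908), and for PFKM parent library 3 or clone library 1 or 2 (up to 0.120). PFKM was also lost with DESeq2 (adjusted p = 0.104) and with scaling by library size alone (edgeR adjusted p = 0.0999).

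Between the untreated parents, 20 of 38 members were higher in A375 and 13 higher in HCT116, where 42.3% and 39.5% of all genes were called (edgeR adjusted p under 0.05), so members were called about as widely as genes in general. SLC16A3 had the widest gap, with 17.8, 18.3 and 16.8 CPM in A375 and 478, 498 and 494 in HCT116 (-4.73 ± 0.056, edgeR adjusted p = 8.00e-63). SLC2A3 went the other way, at 38.9, 44.6 and 40.5 CPM against 5.93, 6.22 and 4.15 (2.98 ± 0.11). The lactate exporter was thus mainly an HCT116 transcript and the second glucose transporter mainly an A375 one. PFKFB4 (1.68 ± 0.086), BNIP3 (1.15 ± 0.064), HK1 (1.13 ± 0.045), GAPDH (0.83 ± 0.025), HIF1A (0.69 ± 0.036) and VEGFA (0.65 ± 0.057) were higher in A375. All 3 phosphofructokinases were higher in HCT116 (PFKL -1.21 ± 0.050, PFKP -0.82 ± 0.035, PFKM -0.73 ± 0.042), as were EGLN3 (-3.00 ± 0.33), the oxygen sensor that HIF itself induces, and ADM (-1.39 ± 0.098).

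The make-up of isoenzyme families was followed on the TPM scale, as a description with no test. PFKL made up 22.8 ± 0.477% (SD, n = 3) of phosphofructokinase TPM in HCT116 knockout vehicle libraries and 27.1 ± 0.528% with inhibitor, and PFKP 54.1 ± 1.05% and 51.0 ± 0.627%. In A375 knockout cells PFKP made up 56.8 ± 1.58% without and 53.4 ± 0.216% with inhibitor, and PFKL 17.9 ± 0.986% and 19.7 ± 0.654%. In both clones the PFKP share was thus lower and the PFKL share higher with inhibitor, without overlap of libraries. PFKFB4 made up 30.1 ± 2.04% of the PFKFB3 and PFKFB4 sum in A375 knockout vehicle libraries and 43.1 ± 0.908% with inhibitor, and 18.8 ± 2.31% and 24.9 ± 2.69% in HCT116. SLC2A3 made up 11.7 ± 0.153% of the 2 glucose transporters in A375 knockout vehicle libraries and 19.3 ± 0.524% with inhibitor. ALDOC made up 1.16 ± 0.0915% of aldolase without and 2.26 ± 0.0634% with inhibitor in HCT116, and 0.827 ± 0.105% and 1.13 ± 0.0483% in A375, so ALDOA remained the main aldolase. HK2 made up 34.9 ± 1.19% and 36.1 ± 1.51% of hexokinase in HCT116 and 33.2 ± 0.118% and 33.8 ± 0.602% in A375; HK1 and HK2 both fell in the first line and both rose in the second.

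**Figure D4:**
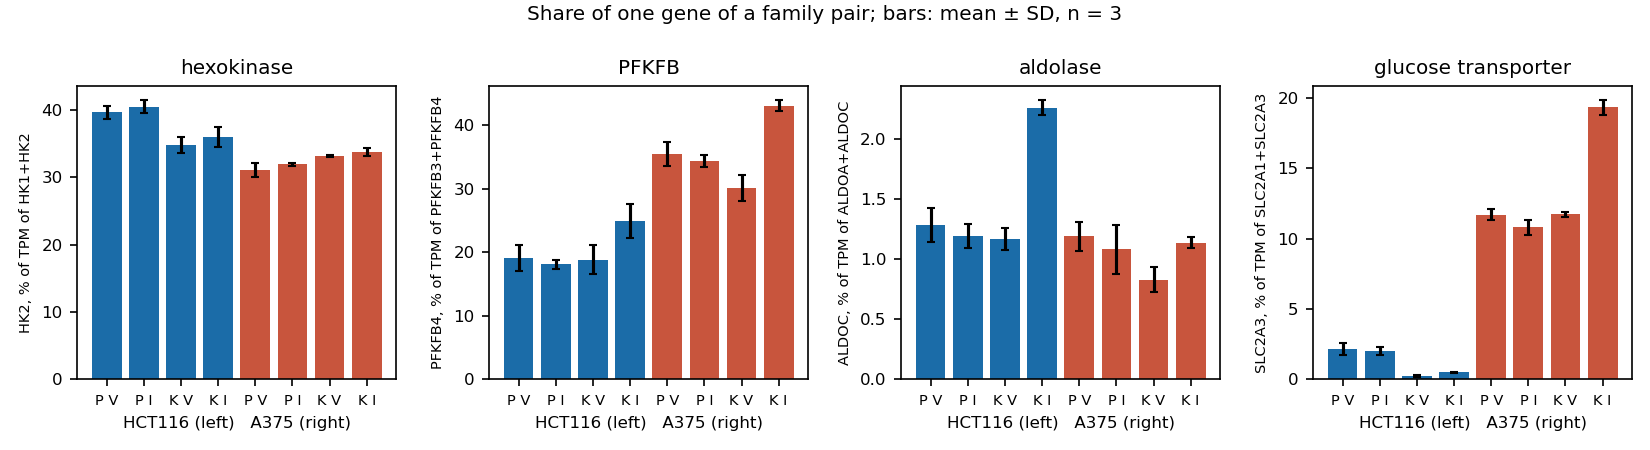
Bars give the share of 1 gene in the summed TPM of its pair (mean ± SD, n = 3), for HK2, PFKFB4, ALDOC and SLC2A3, in the 4 groups of HCT116 (blue) and A375 (red), where P is parent, K knockout, V vehicle and I inhibitor. PFKFB4 and SLC2A3 take a larger share in treated A375 knockout libraries, ALDOC a larger share in treated HCT116 knockout libraries, and HK2 shares are alike with and without inhibitor.

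Summed over the 16 enzymes, TPM was 14615 ± 219 in HCT116 knockout vehicle libraries and 15114 ± 142 with inhibitor. Without GAPDH the sums were 9626 ± 103 and 9469 ± 104, lower with inhibitor. In A375 knockout cells the sum was 19940 ± 181 with vehicle and 21164 ± 242 with inhibitor, and without GAPDH 11673 ± 148 and 12165 ± 166. The sums of the parents were 14520 ± 64.2 in vehicle and 14609 ± 237 with inhibitor in HCT116, and 19673 ± 42.7 and 19634 ± 217 in A375. The enzymes held 1.45% of all TPM in untreated HCT116 parents and 1.97% in untreated A375 parents.

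The classes were also set side by side in each library, with no test. For the 16 enzymes and the 13 non-glycolytic targets with a mean of at least 1 CPM in both untreated parents, the median log2 ratio to the untreated parent was taken in each library, with 0.5 added to each CPM. In treated HCT116 knockout libraries the target medians were 0.38, 0.35 and 0.32 and the enzyme medians 0.014, 0.018 and -0.007. In treated A375 knockout libraries they were 0.36, 0.47 and 0.44 for targets and 0.12, 0.14 and 0.14 for enzymes. All 6 treated knockout libraries were thus higher in the targets than in the enzymes. Over the other 18 libraries target medians ran from -0.077 to 0.056. In A375 knockout vehicle libraries they were -0.069, -0.077 and -0.015, and enzyme medians 0.085, 0.026 and 0.078. These ratios hold the difference between clone and parent as well as that with inhibitor.

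Other genes of these pathways were read from lists. Of 39 other HIF targets, 33 were tested in the HCT116 knockout, where 7 rose and 5 fell with a median of -0.040, and 34 in the A375 knockout, where 15 rose and 4 fell with a median of 0.13. Over all genes 17.0% rose and 19.6% fell in HCT116 and 18.6% and 18.8% in A375, so the HCT116 counts were near those of all genes. DDIT4, an inhibitor of mTORC1, rose by 2.56 ± 0.052 in HCT116 and 0.70 ± 0.033 in A375. STC1, a secreted glycoprotein, rose by 1.39 ± 0.14 in A375, and AK4, a mitochondrial adenylate kinase, changed by -0.46 ± 0.049 in HCT116. Of 14 tested components of the HIF pathway, 3 rose and 2 fell in each knockout, near the same shares. VHL, which targets the alpha subunits, rose in both (0.14 ± 0.048 and 0.29 ± 0.048), and ARNT2, a partner subunit of HIF, rose in A375 (0.79 ± 0.049).

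Of 41 further glycolysis genes, 31 were tested in HCT116 with 6 up and 6 down, and 30 in A375 with 7 up and 4 down, also near the shares of all genes (17.0% up and 19.6% down in HCT116, 18.6% and 18.8% in A375). PDP1, the phosphatase that opposes the PDK kinases, changed by -0.27 ± 0.028 in HCT116, and HKDC1, a further hexokinase, by 1.27 ± 0.22 from a low level. PGM1, which links glycogen to glycolysis, rose by 0.40 ± 0.050 in A375. Of 9 pentose phosphate pathway genes, 3 rose and 4 fell in HCT116 and 5 rose and 3 fell in A375. PCK2, the mitochondrial enzyme that makes phosphoenolpyruvate, rose by 2.22 ± 0.085 in HCT116 and 0.37 ± 0.078 in A375, and of the gluconeogenesis genes tested 2 of 3 and 3 of 4 rose.

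Genes of other regulators differed in the same libraries. For scale, 17.0% of all genes tested rose and 19.6% fell in the HCT116 knockout, and 18.6% and 18.8% in the A375 knockout. Of 16 genes of the integrated stress response, a programme led by ATF4, which is also known to activate VEGFA, 15 rose in the HCT116 knockout with a median of 1.14, and in the A375 knockout 15 rose and 1 fell with a median of 0.50. SLC7A11, a cystine transporter, rose by 2.13 ± 0.046 and 1.04 ± 0.033. MYC, an activator of glycolytic genes, changed by -0.40 ± 0.037 in HCT116 (edgeR adjusted p = 3.96e-12), with means of 217 CPM against 285, and was not called in A375 (-0.15 ± 0.079, edgeR adjusted p = 0.133). Of 10 genes tested on the list of MYC and its partners, 5 rose and 2 fell in HCT116 and 4 rose and 1 fell in A375. The part of these genes in the responses of the set was not tested.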

How the data were processed

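RNA of 24 libraries (HCT116 and A375, parent and PTDSS2 knockout clone, vehicle or inhibitor, 3 per group) was analysed from 1 deposited table per library. The submitters' processing notes list STAR 2.4.2a, RSEM 1.2.23 and hg19, while annotation release, strand setting and filters are not given there or in any other source used here. Per the file headers, the authors deposited expected counts of each gene, in which RSEM shares out reads that match several genes. They also deposited TPM values, which take gene length and depth into account, and these served for levels, family shares and sums. The deposited FPKM values were not used. Identifiers were matched to symbols in a RefSeq table for 25220 of 25343 genes, and the other 123 held at most 0.0724% of counts in a library.

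Expected counts were rounded to whole numbers, filtered with edgeR's default filter (minimum count 10, total 15) and scaled by TMM. CPM values are TMM-scaled. Each line was fitted with a mean per group over its 12 libraries, and comparisons of lines over all 24, with the two-sided quasi-likelihood F test of edgeR 4.0.16 in R 4.3.3 (robust). Adjusted p-values are Benjamini-Hochberg over all genes tested, with calls under 0.05, and a standard error is the log2 fold change divided by the square root of F. The fit was tested on simulated data. Values of every library are given, per comparison of 2 groups of a line, for up to 5 members in each direction with the largest called change, a mean of at least 5 CPM and groups that did not overlap, and for HIF1A, VEGFA, HK2, LDHA, SLC2A1, PDK1, BNIP3 and CA9 in the knockouts. Some others, such as SLC2A3 in the A375 knockout response, are given outside this rule. For other genes of a list, up to 4 with the smallest adjusted p could be named. The members, lists and rules were chosen with earlier results of these data known. Alternatives were other scalings and filters, DESeq2 1.42.0, limma-voom (limma 3.58.1), other sets of libraries in the fit, a replicate block and leaving out each library.

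Totals of 6211629 to 11688267 counts limit precision for members of few CPM. Promoter letters come from RefSeq (GRCh38.p14).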

Additional observations from a re-analysis of the deposited data

Results flagged for a closer look

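The inhibitor response of the knockout clones differed between the lines for 16 of 38 members, by a direct test of A375 minus HCT116 in a fit of all 24 libraries (edgeR, adjusted p under 0.05), where 10.4% of all genes were above 0 and 8.31% below. On the log2 scale the difference was 0.39 for HK1, 0.36 for HK2 and 0.42 for LDHA, which fell in HCT116 and rose in A375. Those A375 rises were not called beyond the inhibitor effect of the A375 parent. For PFKM (0.21) and PFKFB3 (0.30) a fall was called in HCT116 and nothing was called in A375, and SLC2A1 (0.47) fell in both and further in HCT116. PFKFB4 (0.59), EGLN1 (0.29), KDM3A (0.40) and P4HA2 (0.52) rose in A375 and were not called in HCT116. Rises of P4HA1 (0.26) and MXI1 (0.41) were called in both lines and were larger in A375, and that of NDRG1 (-0.48) was larger in HCT116. HIF1A differed by -0.61, with a rise in HCT116 and a small fall in A375 whose call depended on single libraries. ADM (-1.23) fell in A375 and was not called in HCT116. SLC16A3 (-0.31) fell in both and further in A375, where its level in CPM was much lower. Each line is represented by 1 clone, so line and clone cannot be told apart.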

How the results depend on the processing

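The 46 values of named members gave 690 values under the alternatives, of which 656 kept direction and side of the threshold, 33 lost the call and 1 changed sign, and 10 of the 46 lost the call at least once. The sign change was that of BNIP3 in the HCT116 knockout, never called, which ran from -0.0025 without vehicle library 3 to 0.1797 without vehicle library 2. DESeq2 called 2 in place of 4 members higher in the HCT116 clone than in its parent, and no other count of members moved by over 1.5 times outside the fits that left out a library. Leaving out each library in turn gave, up and down, 11 to 13 and 8 to 10 members in the HCT116 knockout with inhibitor, 20 to 22 and 5 to 6 in the A375 knockout, 2 to 4 and 4 to 6 for the HCT116 clone, 6 to 8 and 4 to 5 for the A375 clone, 9 to 11 and 8 to 9 for the HCT116 difference of effects, 12 to 17 and 4 to 5 for that in A375, 11 to 14 and 3 to 5 between the knockout responses, 18 to 22 and 12 to 13 between parents, and 0 in both parents with inhibitor. The percent change in summed enzyme TPM went from 3.41 to -1.63 without GAPDH in the HCT116 knockout, from 6.14 to 4.22 without GAPDH and 3.73 with summed CPM in the A375 knockout, and from -0.200 to 1.05 with summed CPM in the A375 parent. Same-numbered libraries had correlations of deviations of -0.129 to 0.0819, and libraries of other numbers -0.1208 to 0.0913. Numbers thus gave no sign of pairing, which this cannot exclude. With the number as a replicate block, 13 members rose and 9 fell in the HCT116 knockout and 22 and 6 in the A375 knockout. No count moved by over 1.5 times with this block. Members of few CPM (CA9, EGLN3, ANKRD37, and SLC2A3 in the HCT116 clone) are limited by depth.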
